A study of Mus musculus with 38 samples.

Results

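The genes described here come from a list of 42: ATF4, the transcription factor of the integrated stress response, its partners, and the stress, amino acid synthesis, transport and tRNA charging genes it is known to control. They were taken by symbol from a fixed list, and a gene was kept where it had counts above 0 in any library. That left 30 of the 42 listed genes, out of 55385 genes in the deposited table. The 30 comprise 3 of 6 listed regulators, 4 of 5 stress effectors, 5 of 7 enzymes of serine and one-carbon metabolism, 5 of 7 other amino acid enzymes, 8 of 9 amino acid transporters and 5 of 8 aminoacyl-tRNA synthetases. The other 12 were at 0 in all 38 libraries: Atf4 itself, Ddit3 (the transcription factor CHOP), Cebpg, Sesn2, Mthfd2, Mthfd1l, Aldh18a1, Slc7a11, Cth, Aars, Iars and Wars. Of these 12, 11 overlap another gene on the same strand in GENCODE vM21, the exception being Atf4, and 3 share exon bases with it, against 0 of the 30 genes with counts. A listed 0 is not read as absence of expression here, and Atf4 and Ddit3 have no value in any group.

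The study measured stranded total RNA of mouse embryonic stem cells with 10 uM BRM014, an inhibitor of the ATPases BRG1 and BRM of the SWI/SNF chromatin remodelers, or 10 uM of an inactive analog, both dissolved in DMSO. All cells were of 129S6/SvEvTac background and grew on gelatin in medium with fetal calf serum, leukemia inhibitory factor and added non-essential amino acids. In experimental batch 2450 (26 libraries, 13 groups of 2), wild-type cells were exposed to BRM014 (30 min, 1 h, 3 h, 6 h, 24 h), to the inactive analog (1 h, 24 h) or to DMSO alone (1 h, 24 h), and 4 washout groups were kept 30 min or 1 h after 1 h of BRM014, or 6 h or 24 h after 24 h of BRM014. In batch 2457 (12 libraries, 6 groups of 2), Ino80ko, Snf2hko and wild-type cells received BRM014 or DMSO for 24 h. The labels give no DMSO group at 30 min, 3 h or 6 h, no washed DMSO group, no dose for the washout groups, and not whether each knockout line is 1 clone. Replicates are called biological in the protocol without naming cultures or days, so p-values measure the spread between these samples, which may be partly technical.

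When the translation factor eIF2 is phosphorylated on its alpha subunit, most protein synthesis slows while translation of the ATF4 mRNA rises. ATF4 then binds C/EBP-ATF elements with partner bZIP proteins and raises genes for amino acid synthesis, uptake and tRNA charging. In embryonic stem cells these pathways feed rapid growth, and threonine, serine and glycine supply one-carbon units.

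The C/EBP-ATF element is shown first, because it is the element that ATF4 is known to bind. The letters TGATGNAA were searched on both strands in RefSeq promoter windows (GRCm38.p6) of 250 bases before to 50 bases after each start. They occurred in 1304 of 32851 windows (3.97%) and in 1219 of 27025 genes (4.51%). Of the 30 genes with counts 23 had a window, and 9 of these held a match: Chac1, Trib3, Asns, Pycr1, Slc1a4, Vldlr, Nupr1, Pck2 and Gars. The other 14 held none, and 7 had no entry. Of the genes at 0, 10 had a window and 3 held a match (Slc7a11, Aars and Iars). A match is a description of letters, not a binding site. Stretches around the match are given for 6 genes whose match lies before the start, read 5′ to 3′ on the gene's strand with the match in capitals, at chr2:119350999-119351106 (plus strand), chr6:7693210-7693282 (minus strand), chr11:120643794-120643901 (minus strand), chr7:126625523-126625630 (minus strand), chr14:55540113-55540220 (plus strand) and chr6:55037921-55038000 (plus strand).
Chac1: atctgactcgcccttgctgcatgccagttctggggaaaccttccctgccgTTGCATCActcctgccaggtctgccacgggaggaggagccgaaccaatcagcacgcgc
Asns: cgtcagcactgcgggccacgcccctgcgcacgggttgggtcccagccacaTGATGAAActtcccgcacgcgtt
Pycr1: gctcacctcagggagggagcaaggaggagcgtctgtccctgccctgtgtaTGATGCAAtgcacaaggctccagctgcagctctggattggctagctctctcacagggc
Nupr1: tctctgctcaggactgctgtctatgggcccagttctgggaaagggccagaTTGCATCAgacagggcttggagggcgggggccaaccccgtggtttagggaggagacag
Pck2: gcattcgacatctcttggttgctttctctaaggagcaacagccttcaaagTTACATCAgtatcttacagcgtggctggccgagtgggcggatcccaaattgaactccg
Gars: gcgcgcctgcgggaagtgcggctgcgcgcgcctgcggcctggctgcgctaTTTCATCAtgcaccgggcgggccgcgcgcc
In Asns and Pycr1 the letters stand on the gene's strand, and in the other 4 as their reverse complement.

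Libraries of batch 2450 held 19349695 to 23053021 counts and those of batch 2457 held 21948010 to 44453556 counts, and all 30 genes entered every test. Levels below are CPM, counts scaled to library size with TMM factors over all 38 libraries, and tests are edgeR quasi-likelihood F-tests with Benjamini-Hochberg adjustment over all genes of a fit, with a gene called at an adjusted p under 0.05. The stem cell markers Pou5f1, Nanog and 7 others summed to 5603 to 8188 CPM, while 6 fibroblast markers, of which Col1a2 was at 0, summed to 2.90 to 18.5 CPM. Primitive endoderm markers summed to 1033 to 1186 CPM in Snf2hko with BRM014 and 622 to 645 CPM in Snf2hko with DMSO, against 130.1 to 137 CPM in wild type with DMSO, with Pdgfra at 0. Neural markers summed to 136 to 144 CPM after the 6 h washout, against 60.3 to 60.8 CPM in DMSO 24 h, with Sox1 and Tubb3 at 0. The knockout labels could not be checked on the targeted genes: the Ino80 level was 128 and 122 CPM in Ino80ko but also 130.0 and 125 CPM in Snf2hko, against 174 and 175 CPM in wild type with DMSO, and Smarca5, the gene of SNF2H, was listed at 0 in every library.

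The level of these genes differed with the time in vehicle. In DMSO for 24 h compared with DMSO for 1 h, 23 of 30 rose and 0 fell, against 8.91% of all 12517 genes higher and 9.63% lower. Their median log2 fold change was 0.51, against -0.01 for all genes, whose median lay between -0.02 and 0.02 in every comparison below. All 5 synthetases and 4 of 4 stress effectors rose, with 4 of 5 serine and one-carbon enzymes, 4 of 5 other enzymes, 4 of 8 transporters and 2 of 3 regulators. Nupr1, a small stress-induced chromatin protein, had 22.8 and 19.6 CPM in DMSO 24 h, against 9.49 and 10.8 CPM in DMSO 1 h (log2 fold change 1.06 ± 0.14 (SE), adjusted p = 4.9e-06). Atf5, a bZIP factor whose translation is controlled like that of ATF4, had 18.2 and 22.7 CPM in DMSO 24 h, against 10.1 and 10.4 CPM in DMSO 1 h (log2 fold change 0.98 ± 0.15 (SE), adjusted p = 1.9e-05). Within batch 2450, to which these libraries belong, both genes stood higher in each 24 h library than in either 1 h library. Psat1, which makes phosphoserine, had 783 and 857 CPM in DMSO 24 h, against 421 and 421 CPM in DMSO 1 h (log2 fold change 0.95 ± 0.053 (SE), adjusted p = 7.8e-13). Omitting single libraries lost the calls of Chac1 (1 of 4 omissions), Eif4ebp1 (3 of 4) and Pck2 (1 of 4). Cbs, the first enzyme of transsulfuration, differed by 0.01 and was not called. Because the vehicle times differed, the counts at 3 h and 6 h are given against the mean of both vehicle times and against each alone. In these bulk samples, fewer cells with a transcript and less transcript per cell cannot be told apart.

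Per kilobase of the deposited gene width, the genes with the highest level in DMSO 24 h of batch 2450 were Gars (332 CPM per kilobase), Asns (211), Nars (194), Lars (193) and Psat1 (193). The lowest were Vldlr (0.737), Aldh1l2 (0.871) and Slc6a9 (2.07 CPM per kilobase). The synthetases Gars, Nars and Lars, which charge tRNA with glycine, asparagine and leucine, thus stood at the high end of the per-length levels, and the lipoprotein receptor Vldlr at the low end.

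At 30 min of BRM014 none of the 30 genes differed from DMSO 1 h by edgeR or by DESeq2, against 0.0% of all genes. By edgeR 3 of the 30 had an unadjusted p under 0.05, against 348 of all 12517 genes. The glutathione-degrading enzyme Chac1 (chr2:119351229-119354381) had 23.7 and 25.8 CPM at 30 min, against 17.4 and 16.7 CPM in DMSO 1 h (log2 fold change 0.53 ± 0.13 (SE), adjusted p = 0.84). The libraries did not overlap, and the difference did not pass the test. At 1 h of BRM014 1 of 30 genes was called, against 0.599% of all genes in either direction. This was Pck2, mitochondrial phosphoenolpyruvate carboxykinase, with 73.8 and 61.5 CPM at 1 h, against 81.5 and 94.5 CPM in DMSO 1 h (log2 fold change -0.39 ± 0.085 (SE), adjusted p = 0.024). Its call was lost without DMSO 1 h replicate 2 or BRM014 1 h replicate 2 (log2 fold change -0.28 to -0.26). The inactive analog at 1 h also gave 1 call, against 0.184% of all genes. Chac1 had 9.61 and 11.98 CPM with the analog, against the same DMSO libraries (log2 fold change -0.67 ± 0.14 (SE), adjusted p = 0.041), and its call was lost without DMSO 1 h replicate 1 or 2 or inactive 1 h replicate 1 (log2 fold change -0.70 to -0.52). Between BRM014 and the analog at 1 h, 0 of 30 genes were called by edgeR or by DESeq2, against 0.16% of all genes. By edgeR 2 of the 30 had an unadjusted p under 0.05, against 1215 of all 12517 genes. The 95% interval of that difference was -0.12 to 0.45 for Chac1 and -0.30 to 0.04 for Pck2 on the log2 scale.

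By 3 h of BRM014 the list was low as a group. Against the mean of both vehicle times 28 of 30 genes fell and 0 rose, with a median log2 fold change of -0.44, while 15.7% of all genes fell and 15.5% rose. Against DMSO 1 h alone 11 of 30 fell (12.1% of all genes), with a median of -0.15. Against DMSO 24 h alone 28 fell (16.8% of all genes), with a median of -0.82. The same 11 genes fell against each vehicle time: Chac1, Trib3, Nupr1, Vldlr, Slc1a4, Slc6a9, Slc7a3, Slc3a2, Pck2, Gpt2 and Psat1. From 1 h to 3 h of BRM014, 10 of 30 genes fell and 0 rose, against 7.45% of all genes lower and 5.83% higher, and 6 genes were called without BRM014 1 h replicate 1. In this step the calls lost when 1 library was omitted were those of Nupr1 (2 of 4 omissions), Pck2 (1 of 4), Slc3a2 (2 of 4), Slc6a9 (2 of 4) and Vldlr (2 of 4). Against the mean of the vehicles, omitting single libraries lost the calls at 3 h of Atf5 (1 of 6 omissions), Cbs (4 of 6), Ddit4 (6 of 6), Eif4ebp1 (1 of 6), Mars (3 of 6), Phgdh (1 of 6), Pycr1 (1 of 6), Shmt2 (5 of 6), Slc7a1 (2 of 6) and Slc7a5 (4 of 6).

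At 6 h of BRM014 the decrease covered nearly the whole list. Against the mean of both vehicle times 29 of 30 genes fell and 1 rose, with a median log2 fold change of -0.69, while 23.5% of all genes fell and 24.9% rose. Against DMSO 1 h alone 21 fell (20.7% of all genes) and against DMSO 24 h alone 29 fell (22.5% of all genes), with medians of -0.44 and -0.94. All 21 genes that fell against DMSO 1 h also fell against DMSO 24 h. Both 6 h libraries lay below all 4 vehicle libraries of that batch except in Slc38a2, Atf5, Psph, Pycr1 and Slc1a5. In Slc38a2 both lay above them, and in Atf5, Psph, Pycr1 and Slc1a5 they overlapped the DMSO libraries. The share of all genes separated in this way was not counted. Omitting single libraries lost the calls against the mean of the vehicles of Atf5 (3 of 6 omissions), Pycr1 (1 of 6) and Slc1a5 (5 of 6). Between 3 h and 6 h of BRM014, 13 genes fell further and 1 rose, against 11.3% of all genes lower and 10.3% higher, and in this step the calls of Mars (4 of 4 omissions), Nars (4 of 4), Phgdh (2 of 4) and Vldlr (4 of 4) were lost when 1 library was omitted. The stem cell marker sum was 5603 to 5654 CPM at 6 h, against 6141 to 6162 CPM in DMSO 1 h and 6546 to 6636 CPM in DMSO 24 h. Fibroblast markers summed to 5.88 to 6.29 CPM at 6 h, against 14.4 to 16.8 CPM in DMSO 1 h and 13.2 to 14.06 CPM in DMSO 24 h, and the part of either set of markers was not tested.

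**Figure D1:**
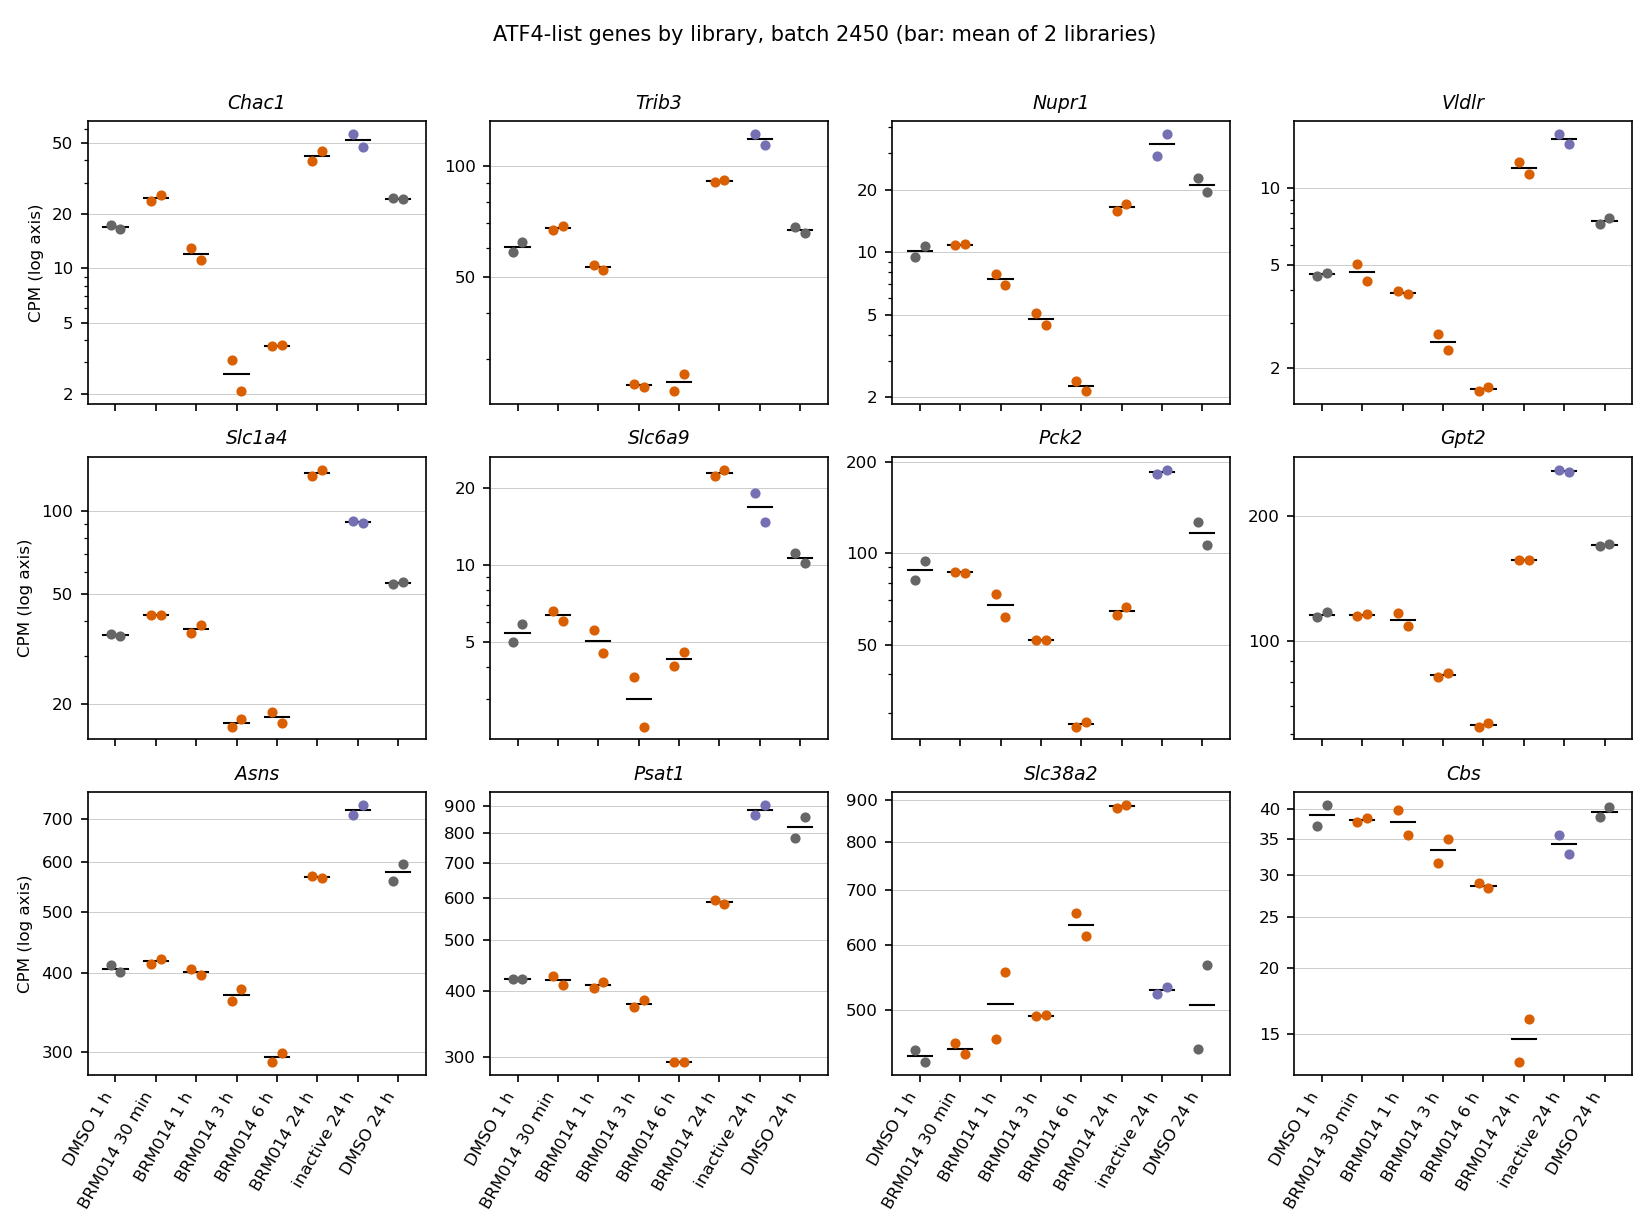
CPM on a log axis of 12 listed genes in batch 2450, by group from DMSO 1 h through BRM014 for 30 min to 24 h to the inactive analog and DMSO at 24 h, with 1 point per library and a bar at the mean of 2. Chac1, Trib3, Slc1a4 and Slc6a9 are lowest at 3 h to 6 h, Nupr1, Vldlr, Pck2, Gpt2, Asns and Psat1 are lowest at 6 h, Slc38a2 is highest at 24 h of BRM014, and Cbs is lowest there.

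Among stress effectors and regulators, Chac1 fell most at 3 h and Nupr1 at 6 h against the mean of the vehicles. Against DMSO 1 h alone the order at 6 h was the other way, with Chac1 at -2.18 and Nupr1 at -2.14. Chac1 had 3.09 and 2.08 CPM at 3 h and 3.69 and 3.74 CPM at 6 h of BRM014, against 17.4 and 16.7 CPM in DMSO 1 h and 24.7 and 24.2 CPM in DMSO 24 h. Against the mean of the vehicles it fell at 3 h (log2 fold change -2.99 ± 0.16 (SE), adjusted p = 2.7e-14) and at 6 h (log2 fold change -2.44 ± 0.15 (SE), adjusted p = 7.8e-14). Nupr1 (chr7:126623249-126630861) had 5.08 and 4.47 CPM at 3 h and 2.402 and 2.14 CPM at 6 h, against 9.49 and 10.8 CPM in DMSO 1 h and 22.8 and 19.6 CPM in DMSO 24 h (log2 fold change -2.67 ± 0.17 (SE), adjusted p = 2.0e-13 at 6 h). In both genes every 3 h and 6 h library lay below every vehicle library. Trib3 (chr2:152337422-152344032), a pseudokinase known to dampen ATF4 activity, had 25.6 and 25.2 CPM at 3 h and 24.5 and 27.3 CPM at 6 h, against 58.3 and 62.2 CPM in DMSO 1 h and 68.4 and 65.8 CPM in DMSO 24 h (log2 fold change -1.28 ± 0.074 (SE), adjusted p = 3.0e-14 at 6 h). Vldlr (chr19:27216484-27254231), a lipoprotein receptor, had 2.71 and 2.35 CPM at 3 h and 1.63 and 1.69 CPM at 6 h, against 4.56 and 4.68 CPM in DMSO 1 h and 7.21 and 7.63 CPM in DMSO 24 h (log2 fold change -1.79 ± 0.15 (SE), adjusted p = 1.4e-10 at 6 h). Between 3 h and 6 h Trib3 differed by 0.05, not called, while Vldlr fell further by 0.58 on the log2 scale, a call lost without BRM014 3 h replicate 1 or 2 or BRM014 6 h replicate 1 or 2 (log2 fold change -0.70 to -0.47). Atf5 (chr7:44812256-44816658) had 11.6 and 8.89 CPM at 3 h and 10.9 and 11.1 CPM at 6 h, which lay around its DMSO 1 h level of 10.1 and 10.4 CPM and below its DMSO 24 h level of 18.2 and 22.7 CPM. Its log2 fold change at 6 h was 0.11 against DMSO 1 h, not called, and -0.87 against DMSO 24 h. The mTORC1 inhibitor Ddit4 behaved likewise, at -0.26 against DMSO 1 h, not called, and -1.26 against DMSO 24 h, and the translation repressor Eif4ebp1 fell against both (-0.67 and -0.99).

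All 10 metabolic enzymes fell at 6 h against the mean of the vehicles. Pck2 (chr14:55540266-55551242) had 51.9 and 51.9 CPM at 3 h and 26.98 and 27.8 CPM at 6 h, against 81.5 and 94.5 CPM in DMSO 1 h and 126 and 107 CPM in DMSO 24 h (log2 fold change -1.86 ± 0.083 (SE), adjusted p = 1.7e-16 at 6 h). Gpt2 (chr8:85492576-85527560), mitochondrial alanine aminotransferase, had 82.03 and 84.2 CPM at 3 h and 62.6 and 63.7 CPM at 6 h, against 114 and 117 CPM in DMSO 1 h and 169 and 171 CPM in DMSO 24 h (log2 fold change -1.13 ± 0.050 (SE), adjusted p = 1.1e-16 at 6 h). Both genes fell between 1 h and 3 h and again between 3 h and 6 h, the first step of Pck2 losing its call without BRM014 1 h replicate 1 (log2 fold change -0.24). Of the phosphoserine pathway enzymes, Psat1 fell by 0.98, Phgdh, which catalyses its first step, by 0.58 and Psph, which catalyses its last step, by 0.35 on the log2 scale. Psph differed from DMSO 1 h by 0.04 at 6 h, not called, so its decrease was against the 24 h vehicle. Asparagine synthetase Asns fell by 0.69 and the mitochondrial folate enzymes Aldh1l2 and Shmt2 by 1.59 and 0.32 on the log2 scale. Cbs (chr17:31608894-31637238) had 28.9 and 28.3 CPM at 6 h, against 37.1 and 40.7 CPM in DMSO 1 h and 38.5 and 40.4 CPM in DMSO 24 h (log2 fold change -0.43 ± 0.089 (SE), adjusted p = 0.00022), without overlap.

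Of the 8 transporters, 7 fell at 6 h and 1 rose. Slc1a4 (chr11:20302180-20332713), an exchanger of alanine, serine and cysteine, had 16.6 and 17.7 CPM at 3 h and 18.7 and 17.1 CPM at 6 h, against 35.8 and 35.3 CPM in DMSO 1 h and 54.4 and 55.4 CPM in DMSO 24 h (log2 fold change -1.28 ± 0.071 (SE), adjusted p = 1.3e-14 at 6 h). The glycine transporter Slc6a9 (chr4:117834506-117875198) had 3.67 and 2.35 CPM at 3 h and 4.03 and 4.602 CPM at 6 h, against 5.02 and 5.89 CPM in DMSO 1 h and 11.2 and 10.2 CPM in DMSO 24 h (log2 fold change -1.35 ± 0.17 (SE), adjusted p = 5.5e-07 at 3 h). Slc1a4 stayed low at 6 h, and Slc6a9 at 6 h was not called against DMSO 1 h alone (-0.32). The cationic amino acid transporter Slc7a3 (chrX:101079210-101086020) had 126 and 128 CPM at 3 h and 75.3 and 80.6 CPM at 6 h, against 161 and 169 CPM in DMSO 1 h and 249 and 256 CPM in DMSO 24 h (log2 fold change -1.36 ± 0.058 (SE), adjusted p = 7.3e-17 at 6 h). Its paralog Slc7a1 (chr5:148327410-148399904) had 125 and 134 CPM at 3 h and 82.6 and 84.1 CPM at 6 h, against 177 and 178 CPM in DMSO 1 h and 202 and 291 CPM in DMSO 24 h (log2 fold change -1.30 ± 0.19 (SE), adjusted p = 5.4e-05 at 6 h). For both cationic transporters the 6 h libraries were the lowest of these groups. The chains of the large neutral amino acid exchanger, Slc7a5 and Slc3a2, fell by 0.62 and 0.69 on the log2 scale. Slc38a2, a sodium-coupled neutral amino acid transporter, rose, with 656 and 614 CPM at 6 h, against 447 and 432 CPM in DMSO 1 h and 448 and 567 CPM in DMSO 24 h (log2 fold change 0.45 ± 0.077 (SE), adjusted p = 4.8e-05).

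The 5 synthetases fell by smaller amounts, from -0.30 for Mars to -0.49 for Sars at 6 h on the log2 scale. Sars, Nars and Mars fell against each vehicle time, while Lars (-0.11) and Gars (-0.10) were called against DMSO 24 h and not against DMSO 1 h. Outside the list, 9 further cytosolic synthetases were measured, and 5 fell and 0 rose at 6 h, against 23.5% of all genes lower and 24.9% higher, with Yars at -0.57 ± 0.046, Tars at -0.30 ± 0.045 and Eprs at -0.23 ± 0.044 (log2 fold change ± SE).

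Between 6 h and 24 h of BRM014 the direction turned. In vehicle alone, in batch 2450, 23 of the 30 genes also rose from 1 h to 24 h (8.91% of all genes), with a median of 0.51. Without a DMSO group at 6 h, the drug and the time in culture cannot be told apart in this step. From 6 h to 24 h of drug 29 of 30 genes rose and 1 fell, with a median log2 fold change of 1.10, while 19.5% of all genes rose and 22.1% fell. Of the 29 genes that had fallen at 6 h, 28 rose in this step, though the calls of Phgdh (3 of 4 omissions), Shmt2 (2 of 4) and Slc1a5 (1 of 4) were lost when 1 library was omitted. Both comparisons use the same BRM014 6 h libraries, so low values there favour a fall in the first and a rise in the second. The share of all genes that fell and then rose was not counted. The stem cell marker sum was 7111 to 7217 CPM at 24 h in batch 2450, against 5603 to 5654 CPM at 6 h, and its part was not tested. Chac1 had 39.4 and 45.4 CPM at 24 h (log2 fold change 3.48 ± 0.15 (SE), adjusted p = 1.1e-16), Slc1a4 had 134 and 141 CPM (log2 fold change 2.91 ± 0.078 (SE), adjusted p = 1.4e-21) and Nupr1 had 15.9 and 17.1 CPM (log2 fold change 2.83 ± 0.18 (SE), adjusted p = 5.3e-13). All 3 genes stood above their 6 h libraries without overlap. Cbs was the gene that fell, to 13.3 and 16.05 CPM at 24 h, against 28.9 and 28.3 CPM at 6 h (log2 fold change -0.99 ± 0.11 (SE), adjusted p = 3.4e-08).

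At 24 h the list was split. In the 8 wild-type libraries of both batches, BRM014 against DMSO with batch as a term gave 12 higher and 6 lower of 30, with a median of 0.12, while 25.0% of all genes were higher and 25.1% lower. Within batch 2450 the counts were 12 higher and 7 lower (22.6% and 23.2% of all genes), and within batch 2457 they were 14 higher and 5 lower (20.6% and 21.7%), with 10 genes higher in both and 5 lower in both. The genes that rose were 3 transporters (Slc1a4, Slc6a9 and Slc38a2), 3 synthetases (Sars, Lars and Nars) and 2 stress effectors (Chac1 and Vldlr), together with Psph, Pycr1, Asns and Trib3. Those that fell were Cbs, Pck2, Aldh1l2, Phgdh, Psat1 and Shmt2, that is 4 of the 5 serine and one-carbon enzymes, Pck2 and Cbs. In Chac1, Psph, Pycr1, Slc6a9, Slc38a2, Slc1a4, Nars, Sars and Lars every BRM014 library lay above every DMSO library of both batches. In Cbs, Pck2, Phgdh and Psat1 every one lay below. The shares of all genes separated in this way, or called alike in both batches, were not counted.

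Slc1a4 had 134, 141, 113 and 117 CPM with BRM014, against 54.4, 55.4, 45.8 and 47.98 CPM with DMSO (log2 fold change 1.31 ± 0.060 (SE), adjusted p = 8.6e-11). Slc6a9 had 22.3, 23.7, 19.01 and 20.4 CPM with BRM014, against 11.2, 10.2, 7.67 and 10.5 CPM with DMSO (log2 fold change 1.11 ± 0.11 (SE), adjusted p = 4.4e-07). In both transporters the lowest BRM014 library lay above the highest DMSO library. Pycr1, which makes proline, rose by 0.82, Psph by 0.58 and Chac1 by 0.55 on the log2 scale. Chac1 had 39.4, 45.4, 31.2 and 29.9 CPM with BRM014, against 24.7, 24.2, 24.3 and 24.4 CPM with DMSO. Vldlr had 12.6, 11.3, 7.17 and 8.53 CPM with BRM014, against 7.21, 7.63, 5.01 and 6.01 CPM with DMSO (log2 fold change 0.59 ± 0.12 (SE), adjusted p = 0.00072). Vldlr was higher with BRM014 within each batch, and its lower batch 2457 BRM014 library lay below both batch 2450 DMSO libraries.

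Cbs had 13.3, 16.05, 14.6 and 14.2 CPM with BRM014, against 38.5, 40.4, 27.9 and 26.7 CPM with DMSO (log2 fold change -1.17 ± 0.11 (SE), adjusted p = 2.5e-07). Pck2 had 62.8, 66.7, 44.2 and 49.9 CPM with BRM014, against 126, 107, 91.4 and 93.4 CPM with DMSO (log2 fold change -0.91 ± 0.072 (SE), adjusted p = 4.0e-08). Neither gene overlapped between treatments. Phgdh fell by 0.50 and Aldh1l2 by 0.91 on the log2 scale. Gpt2 (-0.01), Slc7a3 (-0.05), Slc7a1 (0.23), Atf5 (0.11) and Nupr1 (-0.12) were not called at 24 h. Gpt2 had 157, 156, 144 and 146 CPM with BRM014, against 169, 171, 136 and 136 CPM with DMSO.

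The 24 h response differed between the batches for 3 of 30 genes, 2 with a higher and 1 with a lower response in batch 2457, against 3.52% of all genes. Asns rose in batch 2457 (0.56) and was at -0.03 in batch 2450, not called, a difference of 0.59 ± 0.10 (SE, adjusted p = 0.0032). Its DMSO level was 392 and 388 CPM in batch 2457 and 558 and 595 CPM in batch 2450. Its 24 h call over both batches was lost without DMSO 24 h replicate 1, 3 or 4 or BRM014 24 h replicate 3 or 4 (log2 fold change 0.20 to 0.30). The other differences were Psat1 (0.46) and Slc38a2 (-0.56). This count became 5 when DMSO 24 h replicate 1 or 2 was omitted. It became 1 when BRM014 24 h replicate 1, 2 or 3, or DMSO 24 h replicate 4, was omitted. Over both batches the call of Trib3 was lost without BRM014 24 h replicate 1 or 2 or DMSO 24 h replicate 1 or 2 (log2 fold change 0.18 to 0.20) and that of Psat1 without BRM014 24 h replicate 1 or 2 or DMSO 24 h replicate 2 (log2 fold change -0.20 to -0.18), and neither was called in batch 2457 alone. The call of Nars was lost without BRM014 24 h replicate 4 (log2 fold change 0.16).

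The drug response at 24 h also differed from that at 1 h for 17 of 30 genes. It was higher at 24 h for 12 and lower for 5, against 15.0% of all genes higher and 16.6% lower. Chac1 showed the largest positive difference of the 30 (1.29 ± 0.19, SE) and Cbs the largest negative one (-1.38 ± 0.15).

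**Figure D2:**
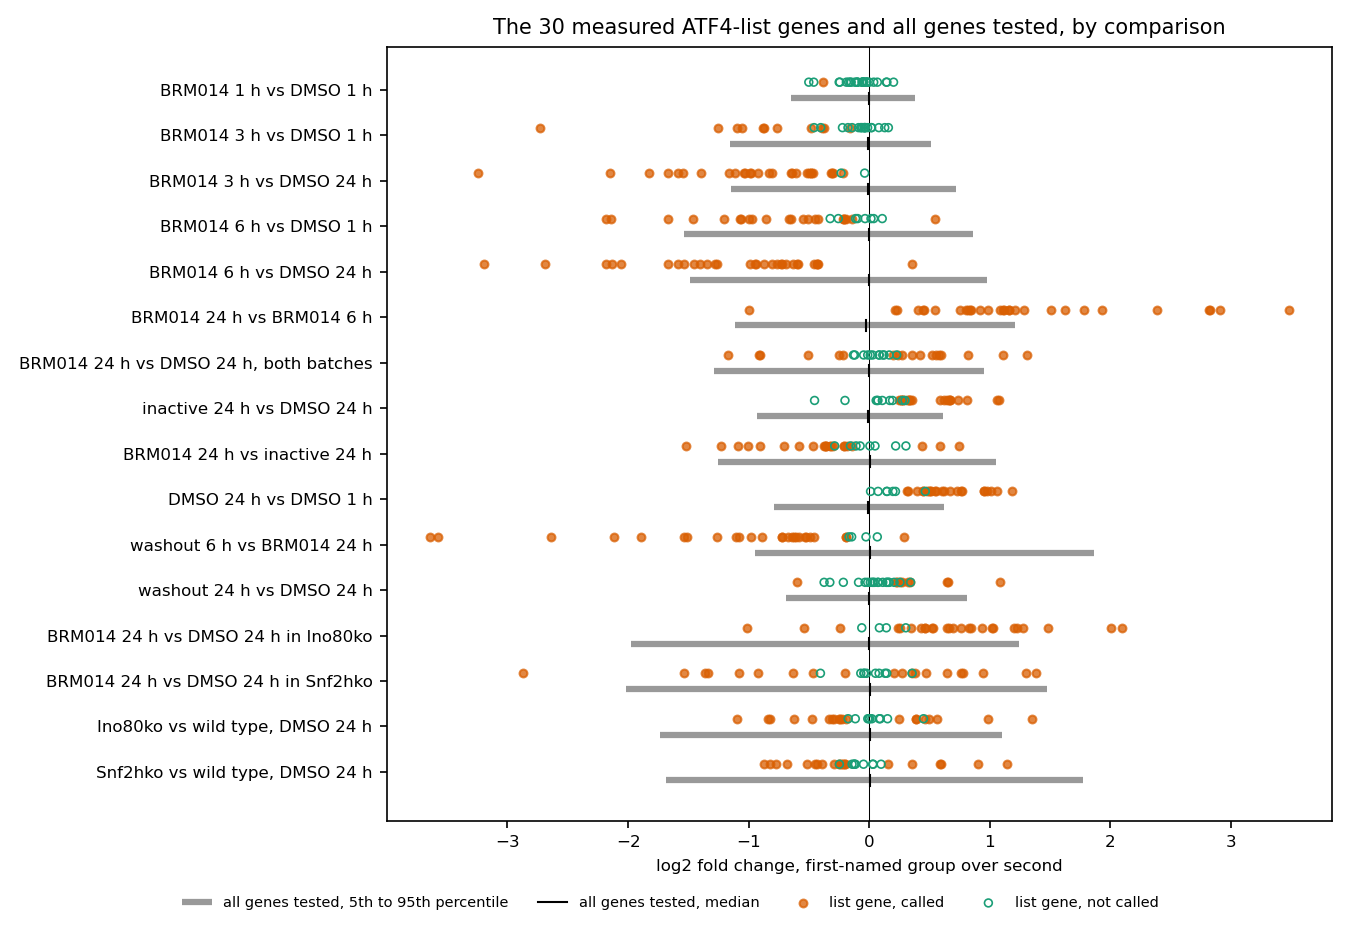
log2 fold changes of the 30 measured genes in 16 comparisons, 1 point per gene, filled where called, above a bar for the 5th to 95th percentile and a tick for the median of all genes tested. The list lies left of 0 at 3 h and 6 h of BRM014 and after the 6 h washout, and right of 0 at 24 h against 6 h and with the inactive analog at 24 h.

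With the inactive analog for 24 h much of the list was higher. Against DMSO 24 h the analog gave 20 higher and 0 lower of 30, with a median log2 fold change of 0.30, while 8.91% of all genes were higher and 9.52% lower. The 20 comprised 6 of 8 transporters, 4 of 5 other amino acid enzymes, 4 of 5 synthetases, 2 of 3 regulators, 2 of 4 stress effectors and 2 of 5 serine and one-carbon enzymes. Chac1 had 55.9 and 47.4 CPM with the analog, against 24.7 and 24.2 CPM with DMSO (log2 fold change 1.08 ± 0.12 (SE), adjusted p = 2.6e-07). Trib3 had 122 and 114 CPM with the analog, against 68.4 and 65.8 CPM with DMSO (log2 fold change 0.81 ± 0.076 (SE), adjusted p = 8.6e-09). Pck2 had 182 and 188 CPM with the analog, against 126 and 107 CPM with DMSO (log2 fold change 0.67 ± 0.083 (SE), adjusted p = 9.4e-07). In all 3 genes both analog libraries lay above both DMSO libraries. Vldlr (16.1 and 14.8 CPM), Gpt2 (258 and 254 CPM) and Nupr1 (29.3 and 37.1 CPM) rose as well, by 1.06, 0.59 and 0.64 on the log2 scale. Slc7a3 had 296 and 316 CPM, Slc7a1 285 and 270.3 CPM, Atf5 28.5 and 21.7 CPM and Cbs 35.8 and 32.9 CPM with the analog. Of these 4, Slc7a3 rose (0.28), and Slc7a1 (0.17), Atf5 (0.30) and Cbs (-0.20) were not called. Omitting single libraries lost the calls of Shmt2 (2 of 4 omissions), Slc1a5 (2 of 4) and Slc6a9 (1 of 4). The stem cell marker sum was 7462 to 7606 CPM with the analog, against 6546 to 6636 CPM with DMSO, and fibroblast markers summed to 7.74 to 7.74 CPM, against 13.2 to 14.06 CPM. The part of these markers was not tested.

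BRM014 set directly against the analog at 24 h, the same dose and time, gave 3 higher and 19 lower of 30, with a median of -0.29, while 17.3% of all genes were higher and 18.1% lower. Slc38a2 had 881 and 888 CPM with BRM014, against 523 and 534 CPM with the analog (log2 fold change 0.74 ± 0.091 (SE), adjusted p = 8.9e-07). Slc1a4 had 134 and 141 CPM with BRM014, against 92.2 and 90.5 CPM with the analog (log2 fold change 0.59 ± 0.068 (SE), adjusted p = 7.1e-08). Slc6a9, the third gene higher with BRM014, had 22.3 and 23.7 CPM with BRM014, against 19.2 and 14.7 CPM with the analog, and its call was lost without BRM014 24 h replicate 2 or inactive 24 h replicate 2 (log2 fold change 0.24 to 0.40). All 5 serine and one-carbon enzymes, all 3 regulators and 4 of 5 other amino acid enzymes were lower with BRM014 than with the analog. Among the widest gaps were Pck2 (log2 fold change -1.52 ± 0.086 (SE), adjusted p = 2.0e-14), Cbs (log2 fold change -1.23 ± 0.11 (SE), adjusted p = 4.6e-10) and Nupr1 (log2 fold change -1.01 ± 0.13 (SE), adjusted p = 6.6e-07). For 8 genes no difference was called, among them Chac1 (95% interval -0.52 to -0.05), Pycr1 (-0.16 to 0.25), Sars (-0.11 to 0.12) and Mars (-0.18 to 0.03) on the log2 scale. These intervals are not adjusted for the number of genes. Omitting single libraries also lost the calls of Atf5 (2 of 4 omissions), Psph (4 of 4), Slc1a5 (2 of 4), Slc3a2 (2 of 4), Slc7a5 (2 of 4) and Vldlr (2 of 4). The comparisons of the 2 compounds with DMSO 24 h share the same DMSO libraries. The structures of the compounds are not given in the labels.

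After the drug was washed out the list was low again. At 6 h after 24 h of BRM014, 25 of 30 genes were lower and 1 was higher than at the end of treatment, with a median log2 fold change of -0.66, while 23.4% of all genes fell and 25.3% rose. Against DMSO 24 h, 24 were lower and 1 was higher, with a median of -0.70, while 19.0% of all genes fell and 20.8% rose. In 22 genes the level fell against both, and these 2 comparisons share the washout libraries. Both washout libraries lay below the 2 BRM014 and 2 DMSO libraries at 24 h except in Atf5, Slc38a2, Cbs, Eif4ebp1 and Slc7a3. The shares of all genes that fell against both, or were separated in this way, were not counted.

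**Figure D3:**
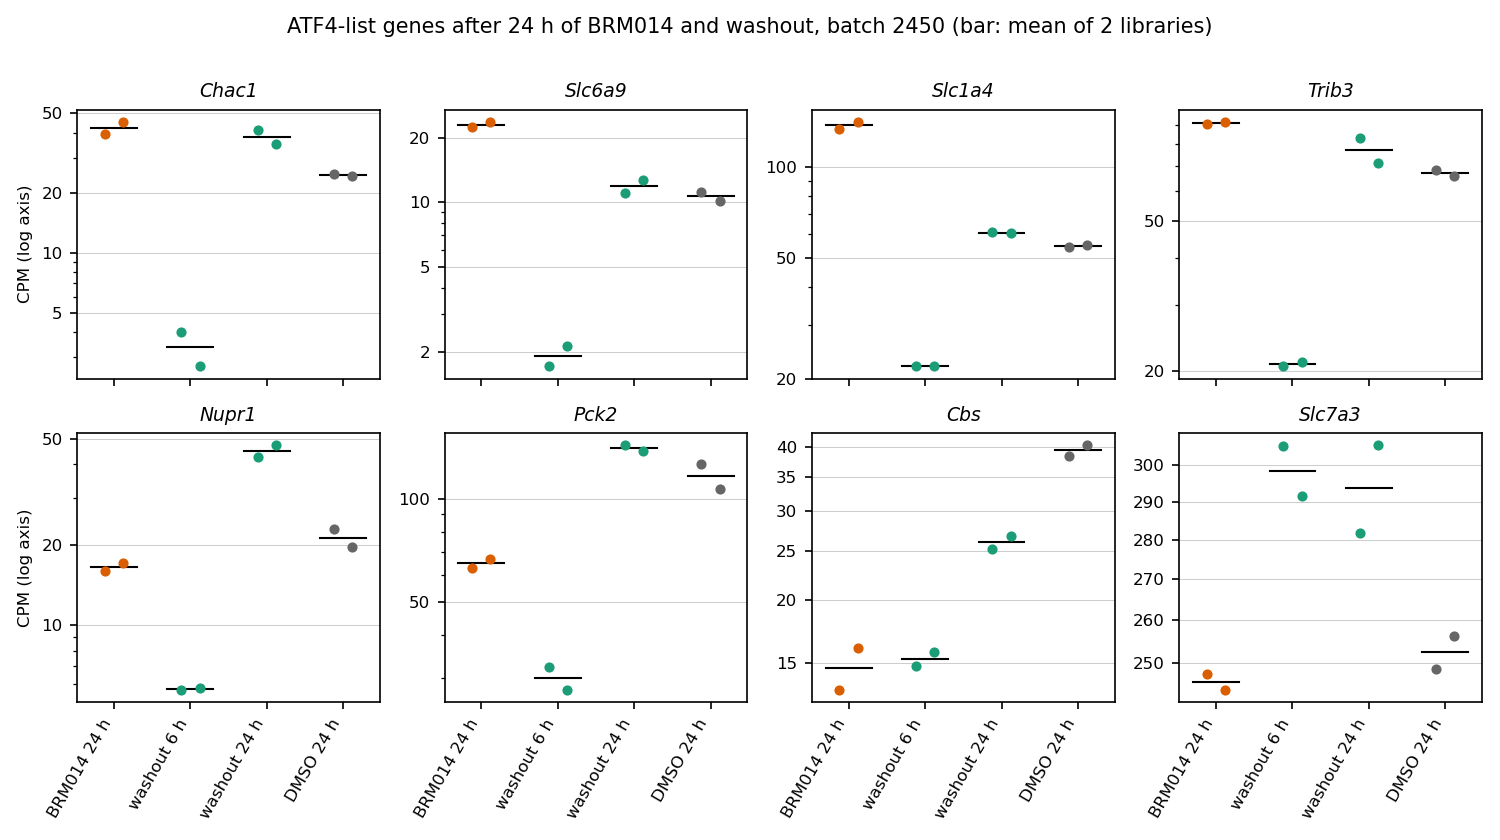
CPM on a log axis of 8 listed genes at 24 h of BRM014, 6 h and 24 h after washout and in DMSO 24 h (batch 2450), with 1 point per library and a bar at the mean of 2. Chac1, Slc6a9, Slc1a4, Trib3, Nupr1 and Pck2 are lowest at 6 h of washout, Cbs is as low there as under the drug, and Slc7a3 is higher there than in the drug or DMSO libraries.

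Chac1 had 4.01 and 2.68 CPM after 6 h of washout, against 39.4 and 45.4 CPM at 24 h of BRM014 (log2 fold change -3.64 ± 0.16 (SE), adjusted p = 5.1e-17) and 24.7 and 24.2 CPM in DMSO 24 h. Slc6a9 had 1.72 and 2.13 CPM after 6 h of washout, against 22.3 and 23.7 CPM with BRM014 (log2 fold change -3.57 ± 0.19 (SE), adjusted p = 2.6e-15) and 11.2 and 10.2 CPM in DMSO 24 h. Both genes stood below every other 24 h library of the batch. Slc1a4 had 21.9 and 21.99 CPM, Trib3 20.6 and 21.1 CPM and Vldlr 3.13 and 3.28 CPM after 6 h of washout, which were -2.64, -2.12 and -1.90 on the log2 scale against BRM014 24 h. Pck2 had 32.3 and 27.7 CPM, Gpt2 54.6 and 52.8 CPM, Nupr1 5.72 and 5.81 CPM and Slc7a1 132 and 137 CPM, at -1.10, -1.54, -1.51 and -1.26 against BRM014 24 h, each called. Omitting single libraries lost the calls of Aldh1l2 (2 of 4 omissions), Ddit4 (3 of 4), Shmt2 (3 of 4) and Slc3a2 (1 of 4) against BRM014 24 h and of Ddit4 (1 of 4 omissions) and Slc7a1 (1 of 4) against DMSO 24 h. Slc7a3 rose, with 305 and 291 CPM, against 247 and 244 CPM with BRM014 (log2 fold change 0.29 ± 0.061 (SE), adjusted p = 0.00031) and 249 and 256 CPM in DMSO 24 h (log2 fold change 0.25 ± 0.061 (SE), adjusted p = 0.0021). Cbs at 14.8 and 15.8 CPM did not differ by test from BRM014 24 h (0.07, 95% interval -0.16 to 0.30) and was below DMSO 24 h (-1.36). Atf5 had 19.7 and 18.5 CPM and was not called against either group. The 5 synthetases were lower than with BRM014, from -0.72 for Nars to -0.46 for Mars. The neural markers given above also stood higher in these 2 libraries than in DMSO 24 h. So did mesoderm markers (5.958 to 6.165 CPM, against 1.586 to 1.972 CPM). Trophoblast markers did too (12.7 to 13.5 CPM, against 6.89 to 7.16 CPM), with Gata3 at 0. The part of these markers in the results was not tested.

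At 24 h of washout fewer of the genes differed from vehicle. Against DMSO 24 h, 9 genes were higher and 1 lower of 30, with a median of 0.14, while 8.91% of all genes were higher and 8.52% lower. When the test was fitted on the compared libraries alone, 4 genes were called. The shares of all genes above are from the fit of all 26 libraries, and the share in the smaller fit is not given here. Nupr1 had 42.5 and 47.2 CPM after 24 h of washout, against 22.8 and 19.6 CPM in DMSO 24 h (log2 fold change 1.08 ± 0.13 (SE), adjusted p = 5.9e-07). Chac1 had 41.2 and 34.9 CPM after washout, against 24.7 and 24.2 CPM in DMSO 24 h (log2 fold change 0.64 ± 0.12 (SE), adjusted p = 0.00052). Both stood above DMSO in each library. Of the others called, Gpt2 (215 and 215 CPM, 0.34), Sars (0.32) and Nars (0.25) were higher too. Cbs was the gene still lower, with 25.2 and 26.7 CPM, against 38.5 and 40.4 CPM in DMSO 24 h (log2 fold change -0.60 ± 0.10 (SE), adjusted p = 0.00012). Against BRM014 24 h, 11 genes were higher and 9 lower, while 25.8% of all genes were higher and 24.6% lower. Higher were 4 of 5 serine and one-carbon enzymes, Pck2 (143 and 137 CPM, 1.12), Gpt2, Cbs, Nupr1, Slc7a3, Nars and Gars, and lower were Slc1a4 (60.8 and 60.5 CPM, -1.17), Slc6a9 (11.02 and 12.7 CPM, -0.94), Slc38a2, Slc7a1, Pycr1, Psph, Vldlr, Trib3 and Lars. Omitting single libraries lost the calls of Aldh1l2 (2 of 4 omissions), Pck2 (2 of 4), Shmt2 (2 of 4) and Slc7a3 (1 of 4) against DMSO 24 h and of Gars (2 of 4 omissions), Lars (1 of 4), Nars (3 of 4), Slc7a1 (1 of 4), Trib3 (2 of 4) and Vldlr (2 of 4) against BRM014 24 h. The remaining named genes after 24 h of washout were Trib3 at 83.3 and 71.2 CPM, Vldlr at 9.82 and 8.95 CPM, Atf5 at 17.8 and 14.8 CPM, Slc7a3 at 282 and 305 CPM and Slc7a1 at 190.4 and 189 CPM.

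Short washouts after 1 h of drug changed few of the genes. After 30 min 0 of 30 rose and 1 fell, against 5.9% of all genes called in either direction: Slc38a2 (log2 fold change -0.33 ± 0.091 (SE), adjusted p = 0.036), a call lost without BRM014 1 h replicate 2 or washout 30 min replicate 2 (log2 fold change -0.21 to -0.19). The count was 0 without BRM014 1 h replicate 2 or washout 30 min replicate 2, 3 without BRM014 1 h replicate 1 and 5 without washout 30 min replicate 1. After 1 h 0 rose and 2 fell, against 3.98% of all genes. Chac1 had 5.61 and 5.99 CPM after 1 h of washout, against 13.1 and 11.1 CPM at the end of 1 h of BRM014 (log2 fold change -1.06 ± 0.16 (SE), adjusted p = 4.0e-05), without overlap. Trib3 was the other (-0.33), and its call was lost without BRM014 1 h replicate 1 or 2 or washout 1 h replicate 1 or 2 (log2 fold change -0.35 to -0.30). Primitive endoderm markers summed to 315 to 337 CPM after the 1 h washout, against 202 CPM in each library at 1 h of BRM014, and their part was not tested. Each washout group was also kept longer since the start of treatment than the groups it is compared with. Without a washed DMSO group, removal of the drug, the wash itself and this added time cannot be told apart in any washout group.

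The knockout lines differed from wild type in DMSO. In Ino80ko, lacking the ATPase of the INO80 remodeler by its label, 8 genes were higher and 12 lower of 30, with a median of -0.01, while 22.1% of all genes were higher and 22.9% lower. In Snf2hko, lacking by its label the ATPase of the ISWI remodelers, 6 were higher and 15 lower, with a median of -0.20, while 28.9% of all genes were higher and 27.7% lower. Atf5 was higher in both, with 28.4 and 27.9 CPM in Ino80ko (log2 fold change 1.35 ± 0.11 (SE), adjusted p = 7.5e-09) and 24.4 and 24.7 CPM in Snf2hko (log2 fold change 1.15 ± 0.11 (SE), adjusted p = 3.1e-08), against 11.7 and 10.4 CPM in wild type. Cbs had 57.2 and 50.5 CPM in Ino80ko (log2 fold change 0.99 ± 0.088 (SE), adjusted p = 3.5e-08) and 25.5 and 24.1 CPM in Snf2hko (-0.14, not called), against 27.9 and 26.7 CPM in wild type. Slc7a3 had 260.3 and 257 CPM in Ino80ko and 161 and 165 CPM in Snf2hko (log2 fold change -0.87 ± 0.062 (SE), adjusted p = 7.2e-10), against 293 and 300.4 CPM in wild type. Both knockout lines thus had higher Atf5 libraries than wild type, while Cbs was high in Ino80ko and Slc7a3 was low in Snf2hko. Nupr1 had 5.403 and 6.18 CPM in Ino80ko (-1.09) and 18.9 and 18.8 CPM in Snf2hko (0.60), against 12.9 and 11.9 CPM in wild type, so the lines lay on either side of wild type. In Snf2hko 6 of 8 transporters and 4 of 5 synthetases were lower. Omitting single libraries lost the calls of Aldh1l2 (2 of 4 omissions), Eif4ebp1 (2 of 4), Phgdh (2 of 4), Slc1a4 (2 of 4), Slc7a3 (3 of 4) and Slc7a5 (1 of 4) in Ino80ko and of Asns (4 of 4 omissions), Chac1 (3 of 4), Gars (2 of 4), Mars (2 of 4), Nars (1 of 4), Psat1 (1 of 4) and Slc1a4 (1 of 4) in Snf2hko. The 2 contrasts share the wild-type libraries, and the primitive endoderm markers given above stood higher in Snf2hko and, at 54.4 to 59.6 CPM, lower in Ino80ko with DMSO than in wild type, and their part was not tested.

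**Figure D4:**
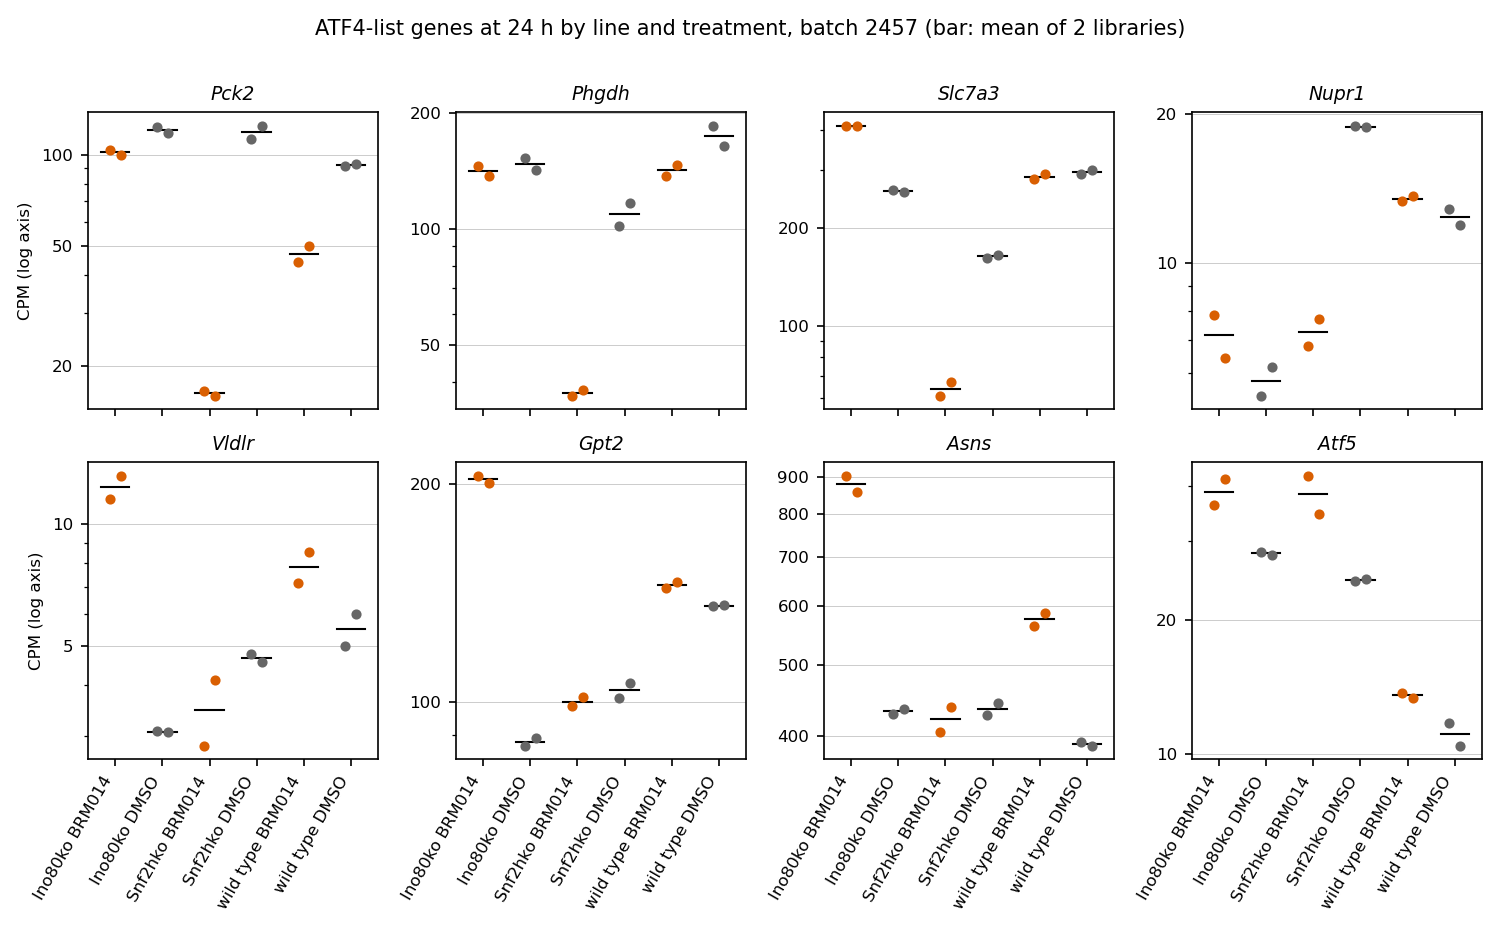
CPM on a log axis of 8 listed genes in batch 2457, by line (Ino80ko, Snf2hko, wild type) with BRM014 left of DMSO at 24 h, with 1 point per library and a bar at the mean of 2. Pck2, Phgdh and Slc7a3 are lowest in Snf2hko with BRM014, and Vldlr, Gpt2 and Asns are highest in Ino80ko with BRM014.

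In Ino80ko, BRM014 for 24 h gave 23 higher and 3 lower of 30, with a median log2 fold change of 0.59, while 22.0% of all genes were higher and 22.6% lower. All 5 synthetases, all 4 stress effectors and 7 of 8 transporters rose. Slc1a4 had 172 and 169 CPM with BRM014, against 40.3 and 39.6 CPM with DMSO (log2 fold change 2.09 ± 0.068 (SE), adjusted p = 1.5e-14). Vldlr had 11.5 and 13.2 CPM with BRM014, against 3.08 and 3.08 CPM with DMSO (log2 fold change 2.00 ± 0.17 (SE), adjusted p = 8.8e-09). Gpt2 had 205 and 201 CPM with BRM014, against 86.97 and 89.2 CPM with DMSO (log2 fold change 1.20 ± 0.061 (SE), adjusted p = 7.8e-12). None of the 3 overlapped. Chac1 had 53.5 and 52.2 CPM with BRM014, against 25.8 and 25.95 CPM with DMSO, Slc6a9 23.5 and 27.1 CPM, against 8.72 and 9.41 CPM, and Trib3 108 and 106 CPM, against 83.6 and 75.3 CPM, and all 3 rose (1.03, 1.48 and 0.43). Slc7a3 with 409.6 and 410.3 CPM under BRM014 (0.66) and Atf5 with 36.2 and 41.4 CPM (0.46) rose as well. Cbs fell to 27.5 and 25.98 CPM with BRM014 (-1.01). Nupr1 at 7.89 and 6.45 CPM (0.30) was not called. Pck2 at 103 and 99.99 CPM (-0.24) was lower by test, a call lost without Ino80ko DMSO 24 h replicate 1 or Ino80ko BRM014 24 h replicate 2 (log2 fold change -0.22 to -0.20). Slc7a1 at 435 and 459 CPM, against 360.5 and 287 CPM, was higher (0.46), a call lost without Ino80ko DMSO 24 h replicate 2 or Ino80ko BRM014 24 h replicate 1 or 2 (log2 fold change 0.31 to 0.50). Omitting single libraries also lost the calls of Aldh1l2 (2 of 4 omissions), Slc3a2 (2 of 4) and Slc7a5 (1 of 4). In Ino80ko the stem cell marker sum was 7901 to 8188 CPM with BRM014, against 6898 to 7229.8 CPM with DMSO, and fibroblast markers summed to 2.904 to 4.01 CPM, against 13.02 to 13.8 CPM, and their part was not tested.

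The response in Ino80ko was tested against that in wild type of the same batch. It was higher for 18 genes and lower for 0 of 30, with a median difference of 0.39, while 4.16% of all genes were higher and 4.87% lower. Vldlr differed by 1.51 ± 0.23 (adjusted p = 0.00034), Gpt2 by 1.11 ± 0.086 (adjusted p = 1.6e-07), and Slc1a4 by 0.80 ± 0.094 (adjusted p = 1.9e-05) on the log2 scale. The genes with a larger response included 4 of 5 synthetases and 5 of 8 transporters. The count was 11 when wild-type BRM014 24 h replicate 4 or Ino80ko BRM014 24 h replicate 1 was omitted. The calls of Eif4ebp1 (4 of 8 omissions), Gars (6 of 8), Lars (8 of 8), Sars (3 of 8), Slc3a2 (6 of 8), Slc7a5 (6 of 8) and Trib3 (5 of 8) were those lost on omitting single libraries. Of these genes, Vldlr and Gpt2 were lower in Ino80ko than in wild type in DMSO (-0.84 and -0.62). So was Nupr1 (-1.09), whose response did not differ by test from wild type. Under BRM014 Gpt2 stood at 205 and 201 CPM in Ino80ko, against 144 and 146 CPM in wild type.

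In Snf2hko, BRM014 for 24 h gave 11 higher and 9 lower of 30, with a median of 0.07, while 28.7% of all genes were higher and 28.2% lower. Pck2 had 16.5 and 15.9 CPM with BRM014, against 113 and 125 CPM with DMSO (log2 fold change -2.87 ± 0.081 (SE), adjusted p = 3.2e-15). Phgdh had 36.8 and 38.1 CPM with BRM014, against 102 and 117 CPM with DMSO (log2 fold change -1.54 ± 0.082 (SE), adjusted p = 1.2e-11). Slc7a3 had 60.9 and 67.3 CPM with BRM014, against 161 and 165 CPM with DMSO (log2 fold change -1.34 ± 0.064 (SE), adjusted p = 2.6e-12). These 3 genes were far lower with BRM014 in both libraries, as was Nupr1 with 6.82 and 7.73 CPM (-1.36). In total 4 of 5 serine and one-carbon enzymes fell, with the call of Shmt2 lost without Snf2hko DMSO 24 h replicate 2 or Snf2hko BRM014 24 h replicate 2 (log2 fold change -0.17 to -0.11). Slc1a4 rose, with 102 and 104 CPM with BRM014, against 38.2 and 41.1 CPM with DMSO (log2 fold change 1.38 ± 0.067 (SE), adjusted p = 3.2e-12), and so did Ddit4 with 74.7 and 70.7 CPM, against 28.03 and 31.3 CPM (log2 fold change 1.30 ± 0.11 (SE), adjusted p = 7.5e-09). Chac1 with 26.7 and 27.5 CPM (0.35) and Atf5 with 42.1 and 34.6 CPM (0.65) rose, and Cbs with 13.6 and 12.5 CPM (-0.92) fell. Slc7a1 rose to 493 and 338 CPM (0.77), and Trib3 to 50.8 and 51.5 CPM (0.20), a call lost without Snf2hko DMSO 24 h replicate 1 or Snf2hko BRM014 24 h replicate 1 or 2 (log2 fold change 0.15 to 0.21). Gpt2 at 98.6 and 102 CPM, Slc6a9 at 7.16 and 6.01 CPM and Vldlr at 2.84 and 4.12 CPM were not called.

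Against the wild-type response, that in Snf2hko was higher for 4 and lower for 12 of 30, with a median difference of -0.13, while 15.8% of all genes were higher and 16.8% lower. Lower were Pck2 (-1.89 ± 0.11), Nupr1 (-1.48 ± 0.17), Slc7a3 (-1.29 ± 0.089) and Phgdh (-1.24 ± 0.11), among others, with Psph losing its call without DMSO 24 h replicate 4, Snf2hko DMSO 24 h replicate 2, BRM014 24 h replicate 4 or Snf2hko BRM014 24 h replicate 1 (log2 fold change -0.33 to -0.24). Higher were Ddit4, Slc38a2, Slc1a5 and Slc7a1, the last a call lost without DMSO 24 h replicate 3 or 4, Snf2hko DMSO 24 h replicate 2 or BRM014 24 h replicate 3 or 4 (log2 fold change 0.61 to 0.77). The response of Cbs did not differ by test from wild type in Ino80ko (95% interval -0.34 to 0.16) or in Snf2hko (-0.26 to 0.27). Primitive endoderm markers moved with the Snf2hko groups as given above. Trophoblast markers summed to 30.4 to 35.5 CPM in Snf2hko with BRM014 and 16.6 to 16.8 CPM in Snf2hko with DMSO. In wild type of that batch they summed to 6.61 to 8.07 CPM with BRM014 and 4.27 to 4.57 CPM with DMSO. The part of both sets of markers in these results was not tested.

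**Figure D5:**
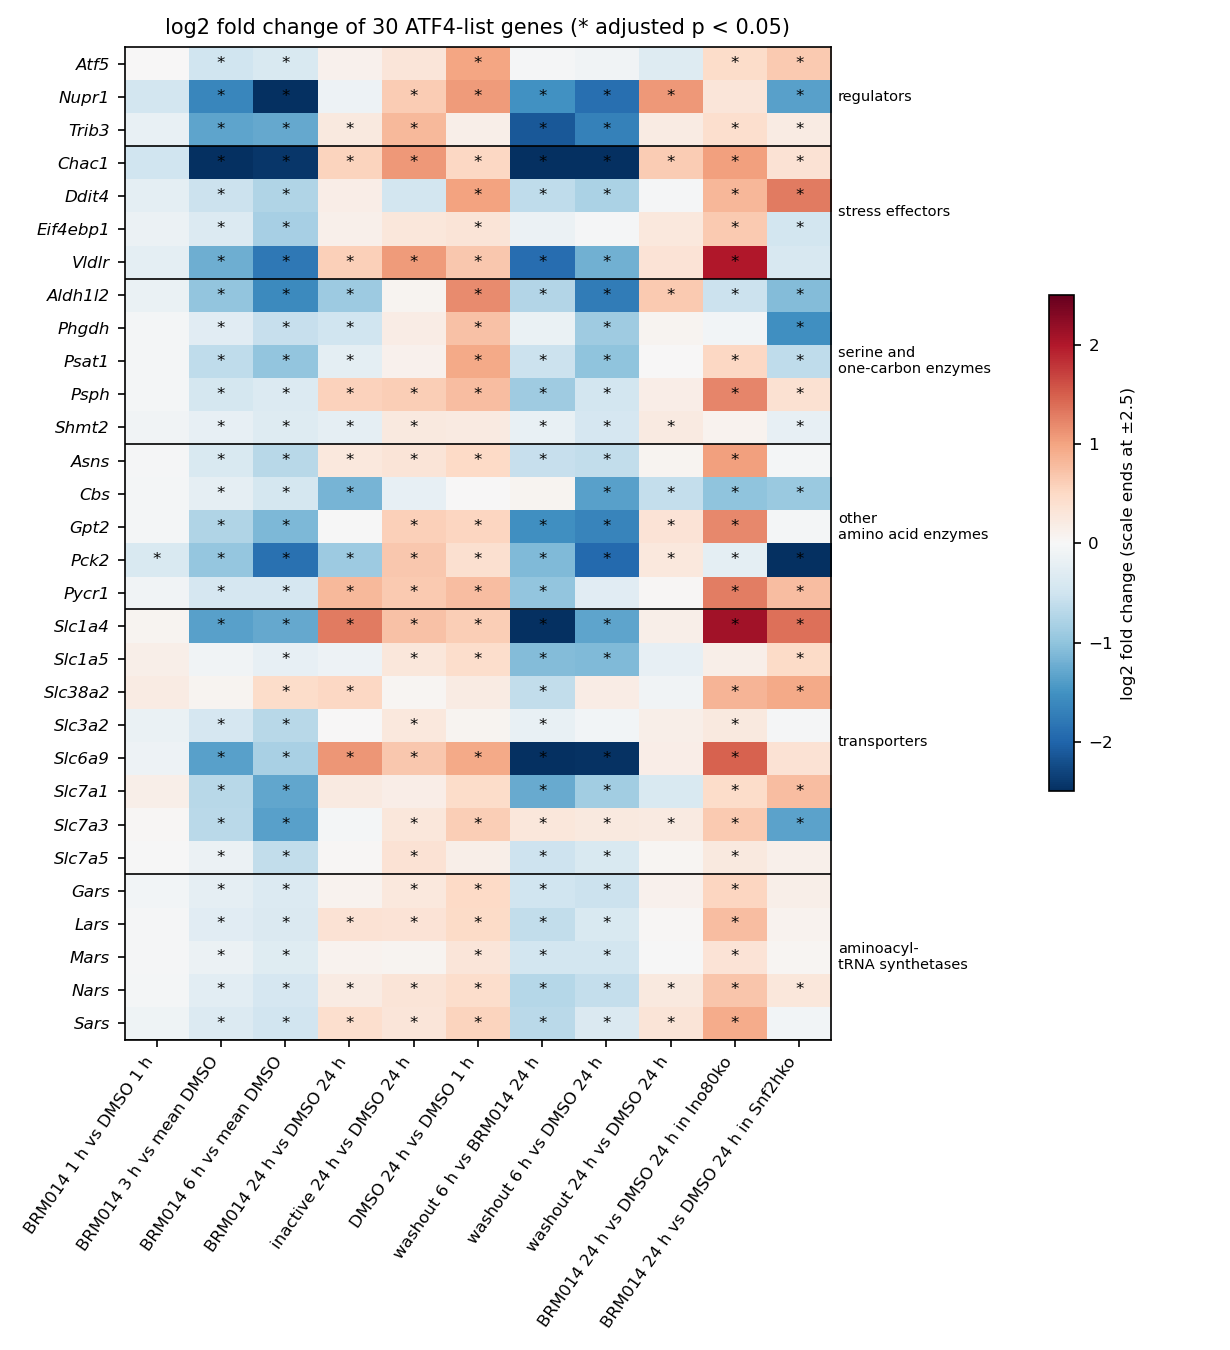
log2 fold changes of the 30 measured genes (rows, by role) in 11 comparisons (columns), with blue for lower and red for higher in the first-named group, the scale ending at 2.5 in each direction, and an asterisk for an adjusted p under 0.05. The 3 h, 6 h and 6 h washout columns are mostly blue, and the inactive analog column and that of BRM014 in Ino80ko mostly red, while Cbs is blue in each of the columns of BRM014 against DMSO from 3 h on.

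Pathways next to the list were taken from textbook knowledge, and no test was made of a difference between them and the list. Of 19 measured further ATF4 or integrated stress response targets, 3 rose and 8 fell at 6 h of BRM014, against 24.9% of all genes higher and 23.5% lower, with a median of -0.23. Vegfa, a growth factor for vessels, fell (-1.61 ± 0.075) and Atf3, a stress-induced bZIP factor, rose (1.2 ± 0.075). With the inactive analog at 24 h, 8 rose and 0 fell (8.91% and 9.52% of all genes), with a median of 0.26, including Fam129a (0.61 ± 0.071), Herpud1 (0.51 ± 0.083) and Stc2 (0.54 ± 0.11). In Ino80ko with BRM014 8 rose and 3 fell (22.0% and 22.6% of all genes), with Fam129a at 1.32 ± 0.062 (log2 fold change ± SE). Of 12 measured eIF2alpha kinase, phosphatase and eIF2B genes, which act upstream of ATF4, 1 rose and 4 fell at 6 h, against the same 24.9% and 23.5% of all genes. The eIF2alpha kinase gene Eif2ak2 fell (-0.63 ± 0.081). Of 15 measured genes of the endoplasmic reticulum unfolded protein response, a neighbouring branch, 3 rose and 5 fell at 6 h, near those 24.9% and 23.5%, and with the analog 0 rose and 4 fell, among them the chaperone Hspa5 (-0.25 ± 0.049). After 6 h of washout, compared with 24 h of BRM014, 10 of these 15 genes were higher and 1 lower, with a median of 0.19, against 25.3% of all genes higher and 23.4% lower, while 25 of the 30 listed genes were lower. In Snf2hko compared with wild type in DMSO, 13 of the 15 were higher and 1 lower, with a median of 0.65, against 28.9% of all genes higher and 27.7% lower. Of the 19 further targets, 13 were higher and 3 lower there, with a median of 0.63, while of the 30 listed genes 6 were higher and 15 lower.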

How the data were processed

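Stranded total RNA libraries of 38 samples were analysed from counts per gene that the authors deposited without normalization, with all 38 columns matched to samples and 0 unmapped. Per the submitters' processing notes, bcl2fastq 2.17, STAR and mouse build GRCm38 (mm10) were used, and how reads were assigned to genes is not given in the sources used here. Gene coordinates are from GENCODE vM21 and promoter windows from RefSeq GRCm38.p6.

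Tests used edgeR 4.0.16 in R 4.3.3 with limma 3.58.1: low genes were dropped with filterByExpr using the groups (counts of 10 and totals of 15 at least), libraries were scaled by TMM, and robust quasi-likelihood tests were adjusted after Benjamini-Hochberg across every gene of a fit, with calls at an adjusted p under 0.05. All 13 groups of batch 2450 shared 1 fit (12517 genes) and all 6 of batch 2457 another (13130 genes), so that each group's 2 libraries draw on 1 estimate of spread. For wild type at 24 h, 8 libraries were fitted with a batch term (11268 genes). Knockouts were compared within batch 2457. Standard errors are the log2 fold change divided by the square root of F, and 95% intervals are 1.96 of them on each side. The scripts were tested on simulated data. Depth was 19349695 to 23053021 counts in batch 2450 and 21948010 to 44453556 in batch 2457.

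Values of single libraries, in many but not all groups, are given for 12 genes. These had the largest called change over 8 comparisons and a mean log2 CPM of at least 2. The others are named by role, and those added for their values (Slc38a2, Psat1, Asns, Phgdh, Ddit4 and others) were chosen after the values were seen. The members and the lists of neighbouring pathways were chosen with earlier results of these data known. Alternatives were DESeq2 1.42.0, RLE factors, no filter, only the libraries compared, each vehicle time or batch alone, the replicate number as a block and each library left out.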

Additional observations from a re-analysis of the deposited data

Results flagged for a closer look

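One library stood apart within a group of 4. Slc3a2, the heavy chain of amino acid exchangers, had 414 CPM in DMSO 24 h replicate 3, against 378 to 380.5 CPM in the other 3 wild-type DMSO 24 h libraries. Chance flags about 1 in 20 groups, and 60 groups were examined.

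The other results are responses to BRM014 that differed between settings by a test of the difference itself, in log2 units (edgeR quasi-likelihood test, adjusted over all genes). Between 24 h and 1 h of treatment in wild type, the response was higher at 24 h for Nars (0.18), Lars (0.25), Slc3a2 (0.29), Sars (0.42), Psph (0.48), Slc38a2 (0.60), Trib3 (0.63), Pycr1 (0.80), Vldlr (0.93), Slc6a9 (1.22), Slc1a4 (1.25) and Chac1 (1.29). It was lower at 24 h for Cbs (-1.38), Aldh1l2 (-0.87), Phgdh (-0.66), Pck2 (-0.46) and Psat1 (-0.43). When 1 library was omitted in turn, the Nars difference was lost in 7 of 8 omissions, the Aldh1l2 difference in 6 and the Pck2 difference in 1.

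Between the batches the 24 h response was higher in batch 2457 for Psat1 (0.46) and Asns (0.59), and lower for Slc38a2 (-0.56). The Psat1 difference was lost in 6 of 8 omissions of 1 library and the Slc38a2 difference in 5. The batches also differ in depth, and the part of depth was not tested.

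Relative to wild type, the 24 h response in Ino80ko was higher for Lars (0.29), Gars (0.31), Slc7a5 (0.34), Slc3a2 (0.34), Trib3 (0.39), Sars (0.41), Nars (0.43), Asns (0.46), Psph (0.50), Eif4ebp1 (0.52), Psat1 (0.55), Slc38a2 (0.61), Chac1 (0.70), Slc7a3 (0.72), Pck2 (0.74), Slc1a4 (0.80), Gpt2 (1.11) and Vldlr (1.51). Relative to wild type, the response in Snf2hko was lower for Pck2 (-1.89), Nupr1 (-1.48), Slc7a3 (-1.29), Phgdh (-1.24), Vldlr (-0.90), Slc6a9 (-0.75), Psat1 (-0.61), Asns (-0.60), Sars (-0.59), Eif4ebp1 (-0.59), Lars (-0.39) and Psph (-0.34). It was higher in Snf2hko for Slc7a1 (0.71), Slc1a5 (0.71), Slc38a2 (0.71) and Ddit4 (0.81).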

How the results depend on the processing

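Counts of called genes among the 30 moved by more than 1.5 times in few settings, and the cause was not tested. The shares of all genes called under each setting are not given here. A change in the list is thus not set apart from a change in all genes. Fitting only the libraries compared gave 1 gene at 30 min of BRM014 (0 as reported), 0 at 1 h (1 as reported), 0 at the 30 min washout (1), 1 at the 1 h washout (2) and 4 for the 24 h washout against DMSO 24 h (10). Without the filter on low counts there were 2 at 1 h, 3 at the 30 min washout and 5 for the batch difference (3 as reported). DESeq2 gave 2 at the 30 min washout and 5 for the batch difference. DMSO 1 h alone gave 11 at 3 h (28 as reported). The replicate block gave 7 for the batch difference. It moved no other count by over 1.5 times, and no paired fit was made between knockout and wild type, whose replicate numbers differ. Replicate numbers did not pair samples: over 85 group pairs the correlation of deviations ran from -0.53 to 0.63, and 30 were over 0.1.

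Leaving out 1 library in turn gave 0 to 1 genes at 1 h of BRM014, 0 to 1 for the inactive analog at 1 h, 6 to 10 for 3 h against 1 h, 1 to 5 for the batch difference, 0 to 5 at the 30 min washout, 1 at the 1 h washout in every case, and 11 to 18 for the Ino80ko response against wild type. With DMSO 1 h alone, 6 genes called against the mean of the vehicles changed sign and lost the call. These were Gars (0.02), Mars (0.016) and Phgdh (0.08) at 3 h, and Slc1a5 (0.015), Psph (0.037) and Atf5 (0.11) at 6 h. Asns was at -0.027 in batch 2450 alone at 24 h, and Ddit4, not called, ran from -0.405 without washout 24 h replicate 1 to 0.516 without its replicate 2 for the 24 h washout against BRM014 24 h. Of 8070 single-gene values under the alternatives, 7609 kept their call or its absence, 334 lost the call and 119 gained it. The other 8 changed sign with a call in the main or the alternative fit. Changes of sign without a call in either fit were not counted apart and are among the 7609. With 2 libraries per group, counting error weighs most on genes of low level such as Vldlr, Aldh1l2 and Slc6a9.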

Other observations

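Outside the list, 18 further amino acid transporters were tested at 6 h of BRM014, of which 3 rose and 10 fell, against 24.9% of all genes higher and 23.5% lower, with a median log2 fold change of -0.34. Slc7a7, the light chain of a cationic and neutral amino acid exchanger, fell (-1.45 ± 0.056, log2 fold change ± SE). At 24 h over both batches Slc38a4 was lower (-0.61 ± 0.071) and Slc38a7 higher (0.88 ± 0.071). Of 21 further one-carbon and methionine cycle enzymes tested, 3 were higher and 12 lower at 24 h of BRM014, against 25.0% of all genes higher and 25.1% lower. The lower genes included Amt (-1.49 ± 0.064) and Gldc (-1.10 ± 0.063), which encode components of the glycine cleavage system, and Shmt1 (-0.51 ± 0.059), the cytosolic serine hydroxymethyltransferase.

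Of 9 tested NRF2 antioxidant targets, 3 were higher and 4 lower at 24 h of BRM014, against 25.0% of all genes higher and 25.1% lower. The quinone reductase Nqo1 fell (-1.72 ± 0.11) and the sulfiredoxin Srxn1 rose (0.88 ± 0.11). With the inactive analog 0 rose and 2 fell (8.91% and 9.52% of all genes), including Nqo1 (-0.73 ± 0.071).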
